A study of Arabidopsis thaliana with 24 samples.

Results

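The subject is the difference between siz1-2 and wild-type (WT) Arabidopsis thaliana hypocotyl explants in how gene expression changed when callus was moved to shoot-inducing medium (SIM). For each gene the change on SIM in siz1-2 explants, from which the change in WT explants was subtracted, gave 1 value, called the interaction here. It used 12 of the 24 RNA-seq libraries of the series, 3 in each of 4 groups, and every gene counted in them. The 4 groups were siz1-2 explants after 4 days on SIM, siz1-2 explants at the end of callus-inducing medium (CIM), WT explants after 4 days on SIM, and WT explants at the end of CIM.

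Both genotypes were in the Columbia (Col-0) background, and siz1-2 is 1 mutant allele of SIZ1. Seedlings were grown for 7 days in the dark at 22 °C, and hypocotyl pieces of about 10 mm were cut and kept on CIM for 4 days in constant light. CIM is rich in auxin (2,4-D at 0.5 µg/ml, with kinetin at 0.05 µg/ml as cytokinin), and the SIM that followed is rich in cytokinin (2-IPA at 0.5 µg/ml, with IAA at 0.15 µg/ml as auxin). The labels do not say whether the 3 libraries of a group came from separate plates or sowings, so the p-values below measure the spread between these libraries, which may be technical. The other 12 libraries, freshly cut explants and explants after 6 days on SIM in both genotypes, entered the fit so that all groups shared 1 estimate of the spread. The free-text descriptions of replicates 2 and 3 at 6 days on SIM exchange the days on the 2 media, and the sampling-time label was followed for them.

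SIZ1 is a ligase that attaches the small protein SUMO to other proteins, many of them transcription factors, and plants that lack it are known for raised salicylic acid, small stature and altered responses to nutrients and cold. Auxin-rich CIM turns hypocotyl tissue into a callus that resembles root meristem tissue, and cytokinin-rich SIM then lets that callus form shoot meristems. The comparison asks which genes answered the move to SIM differently when SIZ1 was disrupted.

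Each library held 7979350 to 15591781 reads in these 4 groups, and values are reads per 1000000 reads of the library (rpm). Counting error alone set the lower limit: 1 read was worth 0.0641 to 0.125 rpm, so a value of 0 allows up to 0.192 to 0.376 rpm at 3 reads. Reads that the 1st listed SIZ1 isoform had beyond its 3rd isoform numbered 290 to 493 in each WT library of these groups and 0 in each siz1-2 library, so the 2 genotypes were told apart in all 12. LBD16, a callus-forming transcription factor, averaged 1.96 rpm on SIM against 88.6 rpm on CIM in siz1-2 explants, and 1.52 against 118 rpm in WT explants. WUS, the gene of the shoot stem cell organiser, had no read in any of the 6 CIM libraries. In 2 CIM libraries, siz1-2 replicate 3 and WT replicate 2, 31 salicylic acid and defence genes had a mean of 4.83 and 4.72 on the log2(rpm + 1) scale, against 1.96 to 2.09 in the other 4 CIM libraries. In these 2 libraries 292 and 176 genes lay over 4-fold from both other libraries of their group, against 0 to 26 in the other 10. Results that lean on them are given beside their values without the 2.

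Most of the response to SIM was held in common. Of 20361 genes tested, 5874 were higher and 5102 lower on SIM in siz1-2 explants (28.8% and 25.1%, together 53.9%), and 4310 were higher and 4987 lower in WT explants (21.2% and 24.5%, together 45.7%). A gene was called changed at a Benjamini-Hochberg adjusted p below 0.05 in limma, on log2(rpm + 1). Changes in the same direction were called in both genotypes for 7871 genes, and in opposite directions for 10. A further 4511 genes were called in 1 genotype, 3095 of them in siz1-2 and 1416 in WT. The difference between the 2 changes itself was called for 13 of these 4511, where it was called for 0.211% of all genes. It was also called for 27 of the 7871 genes and for 3 of the 10. Across the 20361 genes the changes in siz1-2 and in WT had a Pearson correlation of 0.93, a description only, since genes are not replicates.

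The interaction was called for 43 genes, which is 0.211% of those tested: 13 were higher (0.0638%) and 30 lower (0.147%). At an unadjusted p below 0.05 there were 1307 higher and 615 lower genes (6.42% and 3.02%), and the median interaction of all genes was 0.06 (log2). A count test on the recovered reads, edgeR's quasi-likelihood test, called 2 genes higher and 12 lower (0.00982% and 0.0589%), and 13 of its 14 genes were among the 43. The 13 were AT2G38380, PRXCA, PRXCB, MIR408, ZIP2, KAN1, AT4G28790, AT1G62420, AT1G78850, AT1G69480 and AT4G03420, all lower, with OPT3 and AAP4 higher. DESeq2 on the same reads called 12 higher and 74 lower (0.0589% and 0.363%), 22 of them among the 43. Leaving out 1 library of the 12 at a time left 21 of the 43 called in every fit. For 16 of the 43 the adjusted p passed 0.05 in at least 1 of these fits, 93 times in all, while the interaction stayed at 0.83 to 1.08 times its value with all libraries. The number of calls moved with 1 library: without WT SIM replicate 3 there were 50 higher and 43 lower, and without siz1-2 CIM replicate 3 there were 16 higher and 52 lower. Without either WT CIM replicate 1 or 2 there were 8 higher genes, and without WT CIM replicate 3 there were 7.

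**Figure D1:**
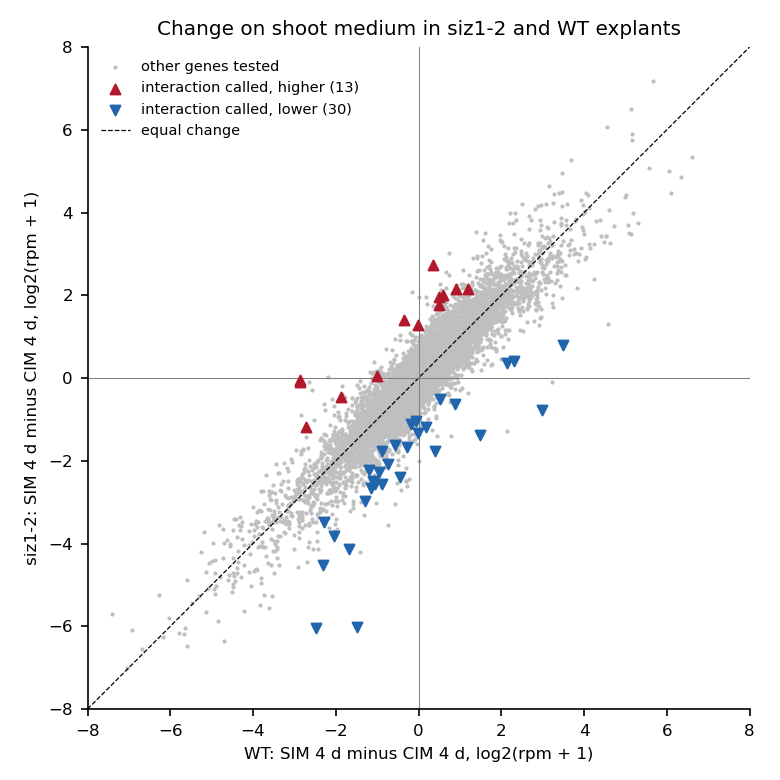
Change on SIM in siz1-2 explants (vertical axis) against the change in WT explants (horizontal axis), both in log2(rpm + 1), for 20361 genes. The 13 genes with a higher interaction (triangles up) lie above the dashed line of equal change and the 30 with a lower interaction (triangles down) lie below it, while the other genes (grey) crowd along it.

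Most called genes differed between the genotypes at the callus stage and came closer on SIM. For the 30 lower genes, siz1-2 explants were above WT explants on CIM in all 30 by the mean of log2 values, with a median difference of -0.13 on SIM and 1.40 on CIM. The genotypes were called apart on CIM but not on SIM for 24 of them, on SIM but not on CIM for 4, and on both for 2, where 2.2% of all genes were called on CIM and 2.2% on SIM. Of the 30, 21 had a mean change on SIM below 0 in both genotypes, 6 below 0 in siz1-2 and above 0 in WT, and 3 above 0 in both. The 13 higher genes split: 5 were called apart on CIM only, 6 on SIM only, 1 on both and 1 on neither, with a median difference of 0.64 on SIM and -0.49 on CIM. On CIM the 3 siz1-2 and 3 WT libraries did not overlap for 28 of the 30 lower and 8 of the 13 higher genes, against 14.3% of all genes tested. These CIM values are part of the interaction, so they describe its shape and are no separate evidence for it.

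**Figure D2:**
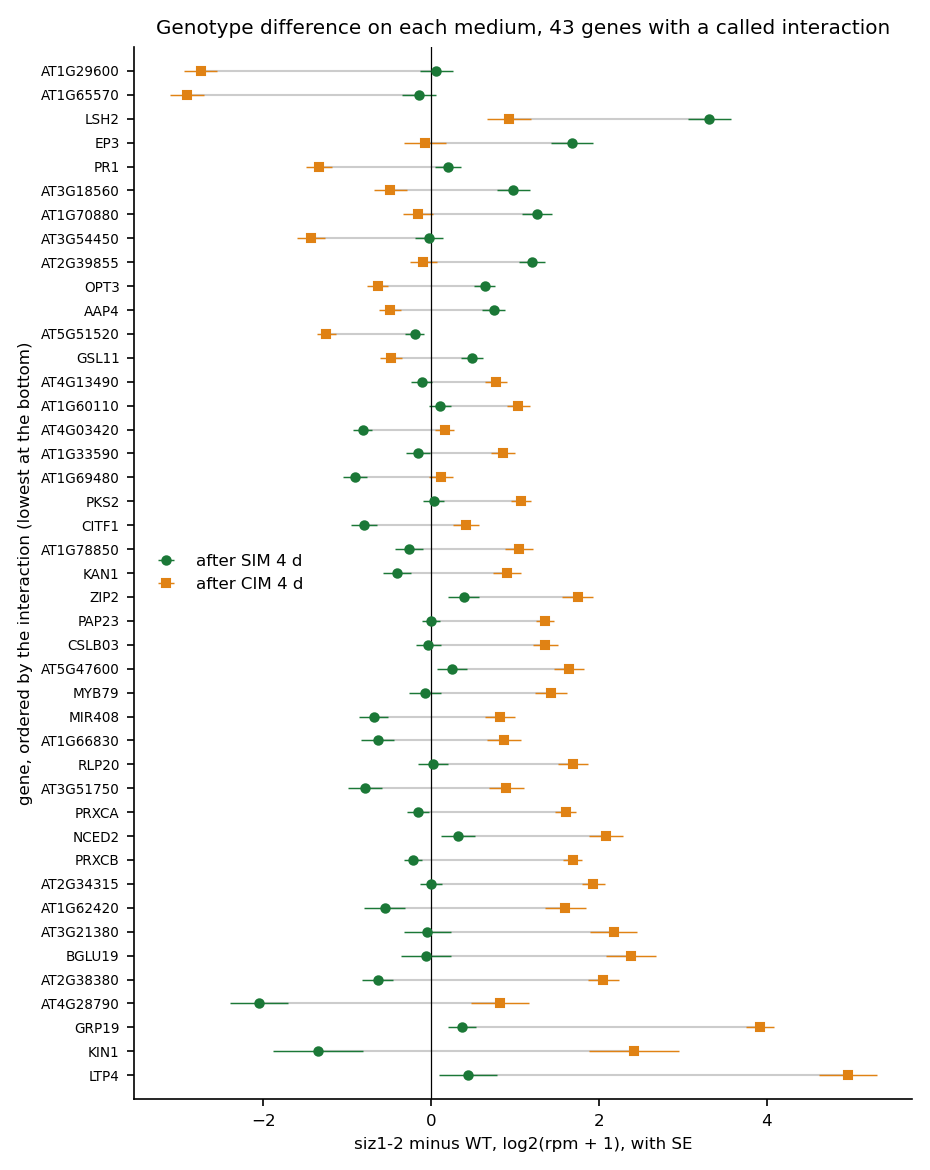
Difference between siz1-2 and WT explants, in log2(rpm + 1) with its SE, after SIM (circles) and after CIM (squares) for the 43 genes with a called interaction, ordered by the interaction. For most genes at the lower end the CIM value lies to the right of 0 and the SIM value near 0, as for GRP19 with 0.37 on SIM and 3.92 on CIM.

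Copper-related transcripts stood among the lower genes, and their sequences are shown first because MIR408 and ZIP2 were called and the motif bound by the copper-response regulator recurs in their windows, as it does in some windows of the copper genes and not in others. MIR408 encodes a microRNA that pairs with messages of copper proteins such as plantacyanin and laccases, and MIR398C encodes one that pairs with copper superoxide dismutase messages. Plants make more of both when copper is short, through the transcription factor SPL7, which binds a GTAC core. The list of copper genes was chosen after the values had been seen, so it is described and not tested. The mature microRNAs follow, 5′ to 3′, read from the TAIR10.1 genome with the RefSeq annotation at chr2:19319933-19319953 and chr5:4694778-4694798, both on the plus strand, with the seed (bases 2 to 8) in capitals; the 2 seeds differ.
miR408-3p: aUGCACUGccucuucccuggc
miR398c-3p: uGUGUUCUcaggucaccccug

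The 250 bases before the annotated start of MIR408 (chr2:19319564-19319813, plus strand), MIR398C (chr5:4694444-4694693, plus strand) and ZIP2 (chr5:23992909-23993158, minus strand) follow, with each GTAC in capitals. GTAC reads the same on both strands, and its copies here do not overlap. Of 25011 windows of the same length in the TAIR10.1 annotation, 1.44% held 3 or more GTAC and 0.28% held 4 or more. The windows shown were picked from a list chosen after the values were seen, so these shares are no test of them. Whether the motif has a part in the interaction was not tested.
MIR408: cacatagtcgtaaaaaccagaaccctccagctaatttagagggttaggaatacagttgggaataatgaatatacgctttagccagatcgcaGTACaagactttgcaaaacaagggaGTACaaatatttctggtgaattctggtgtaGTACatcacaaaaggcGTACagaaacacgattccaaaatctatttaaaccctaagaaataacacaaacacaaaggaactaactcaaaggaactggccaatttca
MIR398C: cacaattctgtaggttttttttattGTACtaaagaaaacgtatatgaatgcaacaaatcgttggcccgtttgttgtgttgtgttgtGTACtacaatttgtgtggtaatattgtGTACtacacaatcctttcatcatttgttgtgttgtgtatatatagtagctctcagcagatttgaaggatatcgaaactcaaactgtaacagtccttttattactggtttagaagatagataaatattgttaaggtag
ZIP2: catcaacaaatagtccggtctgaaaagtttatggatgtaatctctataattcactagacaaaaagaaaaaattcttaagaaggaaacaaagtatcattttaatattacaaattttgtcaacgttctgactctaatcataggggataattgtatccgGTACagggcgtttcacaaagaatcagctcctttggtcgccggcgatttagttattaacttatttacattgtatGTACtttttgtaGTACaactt
MIR408 had 4 copies and the other two had 3 each. Of the 15 copper genes 5 held 3 or more copies (these 3, MIR398B and YSL2), FSD1 and CCH held 1 each and 8 held none, among them SPL7 and CITF1, the other called copper gene.

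In siz1-2 explants MIR408 transcripts had 13.3, 16.1 and 13.1 rpm on SIM against 91.8, 90.03 and 81.5 rpm on CIM. WT explants had 28.6, 24.2 and 18.1 rpm on SIM against 57.1, 36.6 and 56.8 rpm on CIM. On CIM every siz1-2 library was above every WT library, and on SIM every siz1-2 library was below every WT library. The MIR408 interaction was -1.51 ± 0.25 (SE; limma, adjusted p = 0.00631), with a difference between the genotypes of -0.68 ± 0.17 (SE; limma, adjusted p = 0.0427) on SIM and 0.82 ± 0.17 (SE; limma, adjusted p = 0.0115) on CIM. It was called in all 12 fits that left out 1 library, and without the 2 CIM libraries set apart above it was -1.35 (limma, adjusted p = 0.0142). MIR408 lies on chromosome 2, 19319814 to 19320031 (TAIR10.1), and since the kit makes libraries from mRNA, the value is for the precursor transcript, not the mature microRNA.

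ZIP2, a metal transporter of the ZIP family, and CITF1, a bHLH transcription factor of the copper-deficiency response, were also lower, but their patterns differed. In siz1-2 explants ZIP2 had 28.2, 30.9 and 25.7 rpm on SIM against 60.7, 59.3 and 77 rpm on CIM. WT explants had 21.2, 19.2 and 23.5 rpm on SIM against 17.9, 19.2 and 19.2 rpm on CIM. The siz1-2 CIM libraries were all above the other 9, and on SIM, unlike for MIR408, every siz1-2 library was above every WT library. The ZIP2 interaction was -1.35 ± 0.26 (SE; limma, adjusted p = 0.0263), and the call was lost without siz1-2 SIM replicate 1 or 3, siz1-2 CIM replicate 3, WT SIM replicate 1 or WT CIM replicate 1, 2 or 3 (limma, adjusted p of 0.0546 to 0.0804), with the interaction at -1.37 to -1.24 in those fits. In siz1-2 explants CITF1 had 0.253, 0.299 and 0.192 rpm on SIM against 10.3, 15.1 and 14.2 rpm on CIM. WT explants had 1.15, 1.29 and 1.07 rpm on SIM against 9.16, 9.04 and 10.4 rpm on CIM. CITF1 was lowest in the siz1-2 SIM libraries, all below the other 9 and resting on a few reads each, and the genotypes overlapped on CIM. The CITF1 interaction was -1.21 ± 0.21 (SE; limma, adjusted p = 0.0106). Without the 2 CIM libraries named above, ZIP2 and CITF1 were no longer called (limma, adjusted p = 0.0903 for ZIP2 and 0.0693 for CITF1).

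MIR398C missed the threshold. In siz1-2 explants it had 20.01, 34 and 19.8 rpm on SIM against 154, 153 and 114 rpm on CIM. WT explants had 49.1, 46.2 and 30.1 rpm on SIM against 68.6, 26.4 and 71.2 rpm on CIM, the low CIM value being the replicate high in salicylic acid genes. The MIR398C interaction was -2.19 ± 0.46 (SE; limma, adjusted p = 0.0556), and over the alternatives its adjusted p ran from 0.00207 (DESeq2) to 0.278; without the 2 CIM libraries set apart it was -1.88 (limma, adjusted p = 0.0591). Of 7 known targets of the 2 microRNAs 5 had values above 0 and 2 below 0, with none called. At an unadjusted p below 0.05, 3 were higher and none lower, where 6.42% and 3.02% of all genes were. The median of the 7 was 0.43 at 4 days and -0.04 with the 6-day libraries. CSD1, a cytosolic copper/zinc superoxide dismutase, had an interaction of 1.46 ± 0.37 (SE; limma, adjusted p = 0.156). CSD2, the plastid enzyme, had 1.3 ± 0.31 (SE; limma, adjusted p = 0.108), and CCS, the chaperone that loads both with copper, had 0.68 ± 0.18 (SE; limma, adjusted p = 0.188). Among the targets of miR408, ARPN (plantacyanin) had 0.30, the laccase genes LAC12 0.43, LAC13 -0.52 and LAC3 -0.57 (log2), none called. In siz1-2 explants CSD2 had 63.8, 56.6 and 77.3 rpm on SIM against 41.3, 36.7 and 18.2 rpm on CIM. WT explants had 56, 52 and 54.7 rpm on SIM against 61.1, 65.2 and 62.5 rpm on CIM. The siz1-2 libraries were all above WT on SIM and all below WT on CIM, and the lowest value came from the replicate high in salicylic acid genes; without the 2 libraries the CSD2 interaction was 0.92 (limma, adjusted p = 0.163). Of 15 copper-limitation genes 11 were tested, and 3 were lower and none higher in limma, where 0.147% of all genes were lower. At an unadjusted p below 0.05 there were 6 and 0, where 3.02% of all genes were lower. With edgeR there were 2 and 0 and with DESeq2 5 and 0, where 0.0589% and 0.363% of all genes were lower. Without the 2 CIM libraries set apart, 1 gene of the list was lower in limma and none higher. The list median interaction was -0.86, against 0.06 for all genes. SPL7 itself had 0.28 ± 0.14 (SE; limma, adjusted p = 0.532).

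**Figure D3:**
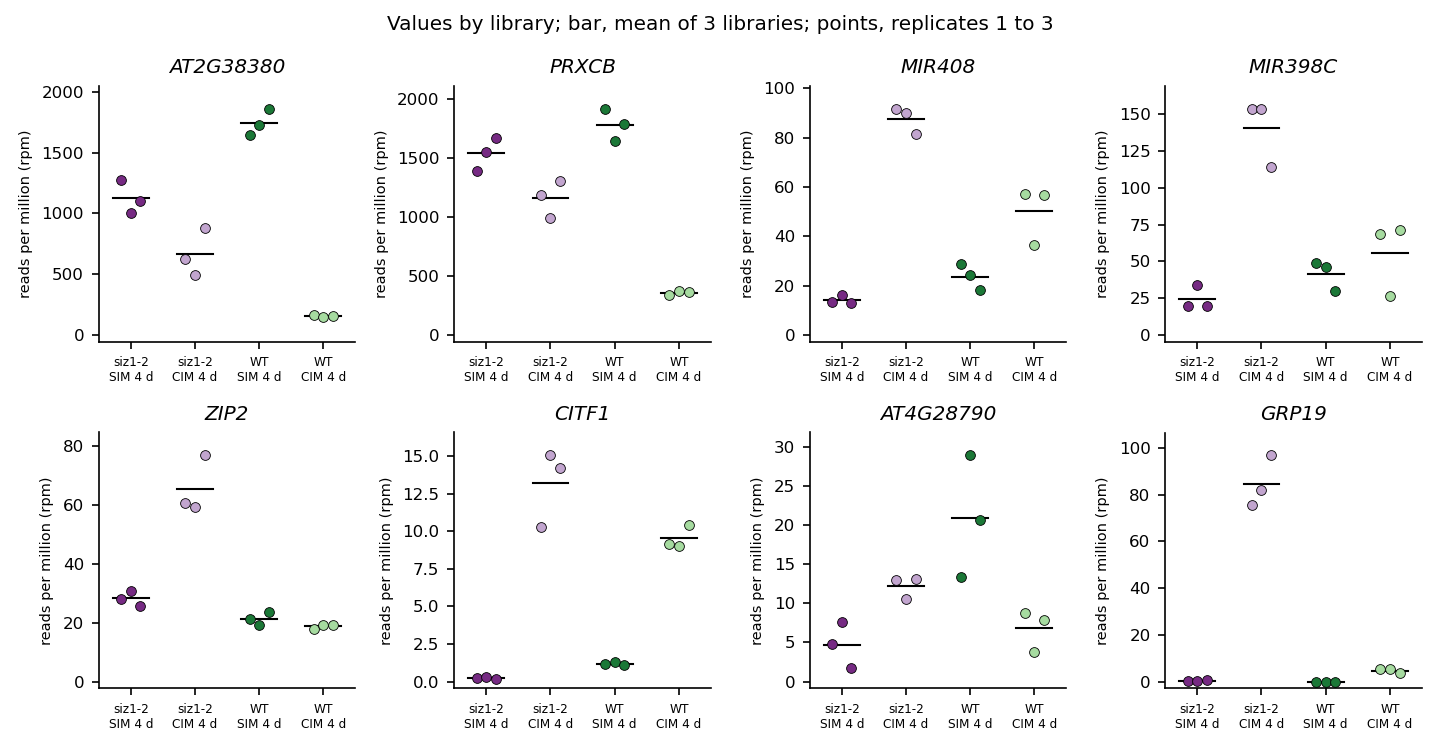
Values in rpm (linear axes) by library for 8 genes in siz1-2 SIM, siz1-2 CIM, WT SIM and WT CIM explants; points are libraries and black bars are means of 3. All panels but MIR398C are of called genes, and in each panel of the 8 the siz1-2 mean on CIM is above the WT mean on CIM.

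The 3 peroxidase genes AT2G38380, PRXCA and PRXCB were lower. Class III peroxidases are secreted enzymes that make and use hydrogen peroxide in the wall, and PRXCA and PRXCB, adjacent genes on chromosome 3 separated by 4386 bases, are known for an apoplastic oxidative burst. In siz1-2 explants AT2G38380 had 1277, 1002 and 1102 rpm on SIM against 626, 496 and 881 rpm on CIM. WT explants had 1646, 1732 and 1863 rpm on SIM against 163, 146 and 158 rpm on CIM. It rose on SIM in both genotypes, from a base on CIM that was higher in every siz1-2 library than in any WT library, and on SIM every siz1-2 library was below every WT library. The AT2G38380 interaction was -2.69 ± 0.26 (SE; limma, adjusted p = 1.14e-05), the siz1-2 change being 0.79 and the WT change 3.48 (log2).

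In siz1-2 explants PRXCB had 1393, 1553 and 1671 rpm on SIM against 1184, 991 and 1308 rpm on CIM. WT explants had 1918, 1646 and 1785 rpm on SIM against 339, 372 and 363 rpm on CIM. On SIM the genotypes overlapped, and on CIM they were far apart. The PRXCB interaction was -1.90 ± 0.15 (SE; limma, adjusted p = 9.93e-07). In siz1-2 explants PRXCA had 115, 121 and 138 rpm on SIM against 95.1, 79.5 and 117 rpm on CIM. WT explants had 156, 127 and 133 rpm on SIM against 30.5, 34.3 and 28.2 rpm on CIM. The PRXCA interaction was -1.76 ± 0.18 (SE; limma, adjusted p = 1.75e-05). All 3 peroxidases were called under every one of 25 alternatives, edgeR and DESeq2 included. PRXCA and PRXCB share 89.2% of their bases over 1228 aligned bases, and AT2G38380 shares 88.7% with its neighbour AT2G38390, and how the authors split reads between copies is not given in the labels. Of 58 peroxidase superfamily genes tested, 3 were lower and none higher in limma, where 0.147% and 0.0638% of all genes were. At an unadjusted p below 0.05 there were 7 lower and 4 higher, where 3.02% and 6.42% of all genes were. edgeR and DESeq2 each called 3 lower, where 0.0589% and 0.363% of all genes were. The family median was -0.01, and this list, too, was chosen after the values had been seen.

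Regulators of transcription and of hormone level were among the lower genes. In siz1-2 explants AT4G28790, which encodes a bHLH protein, had 4.73, 7.55 and 1.67 rpm on SIM against 13, 10.5 and 13.1 rpm on CIM. WT explants had 13.3, 28.9 and 20.6 rpm on SIM against 8.69, 3.8 and 7.9 rpm on CIM. It fell on SIM in siz1-2 and rose in WT, and every WT SIM library was above every siz1-2 SIM library. The AT4G28790 interaction was -2.87 ± 0.49 (SE; limma, adjusted p = 0.00969); without the 2 CIM libraries set apart above it was -2.50 (limma, adjusted p = 0.0523).

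KAN1, a GARP transcription factor that gives leaves their lower side, was the called member of the leaf polarity list. Of the 8 genes of that list tested, 5 had interactions above 0 and 2 below 0, with a median of 0.31. KAN1 alone was called, where 0.147% of all genes were lower. In siz1-2 explants KAN1 had 4.81, 4.18 and 3.46 rpm on SIM against 11.2, 11.9 and 12.3 rpm on CIM. WT explants had 4.85, 5.57 and 7.18 rpm on SIM against 6.23, 6.76 and 4.64 rpm on CIM. The siz1-2 CIM libraries were above the other 9. The KAN1 interaction was -1.32 ± 0.24 (SE; limma, adjusted p = 0.0137), and the call was lost without WT CIM replicate 3 (limma, adjusted p = 0.0561). NCED2, an enzyme that cleaves carotenoids on the way to abscisic acid, had 0.591, 0.822 and 0.834 rpm on SIM against 20.6, 22.1 and 28.2 rpm on CIM in siz1-2 explants. WT explants had 0.385, 0.485 and 0.335 rpm on SIM against 3.21, 7.86 and 4.14 rpm on CIM. It stood above WT on CIM in every siz1-2 library and was under 1 rpm on SIM in both genotypes. The NCED2 interaction was -1.77 ± 0.29 (SE; limma, adjusted p = 0.00631). MYB79, a MYB transcription factor, lies 1374 bases from AT4G13490, a RING/U-box gene, and both were lower, at -1.51 and -0.89. MYB79 lost its call without siz1-2 SIM replicate 1, siz1-2 CIM replicate 1 or WT CIM replicate 3 (limma, adjusted p of 0.0510 to 0.0582). AT4G13490 lost its call without siz1-2 SIM replicate 1, 2 or 3, siz1-2 CIM replicate 2, WT SIM replicate 1 or 2 or WT CIM replicate 2 or 3 (limma, adjusted p of 0.0578 to 0.129).

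Genes of unknown or annotated-only function at moderate levels completed the set that edgeR also called. In siz1-2 explants AT1G62420, of the DUF506 family, had 3.55, 7.02 and 4.43 rpm on SIM against 16.2, 17.9 and 22.9 rpm on CIM. WT explants had 8.16, 7.27 and 7.25 rpm on SIM against 6.8, 4.48 and 5.51 rpm on CIM. It changed on SIM in siz1-2 by -1.77 (log2), and its WT change of 0.39 was not called. The AT1G62420 interaction was -2.16 ± 0.35 (SE; limma, adjusted p = 0.00528), and it was called under every one of 25 alternatives. AT1G78850, a lectin-domain gene, averaged 131 ± 20.5 rpm on SIM against 628 ± 56 rpm on CIM in siz1-2 explants (SD, n = 3). WT explants averaged 159 ± 39.2 against 302 ± 15.5 rpm (SD, n = 3). The AT1G78850 interaction was -1.31 ± 0.23 (SE; limma, adjusted p = 0.0121), lost without siz1-2 SIM replicate 1 (limma, adjusted p = 0.0537), and its copy AT1G78860 is 91.2% identical over 1394 bases. AT4G03420, of the DUF789 family, had 40.8, 38.2 and 48.6 rpm on SIM against 84.5, 85.3 and 96.4 rpm on CIM in siz1-2 explants. WT explants had 88, 73.4 and 65.7 rpm on SIM against 79.5, 77.8 and 80.1 rpm on CIM. The siz1-2 SIM libraries were all below the other 9. The AT4G03420 interaction was -0.98 ± 0.16 (SE; limma, adjusted p = 0.00656).

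AT1G69480, of the EXS family that includes phosphate exporters, had 2.62, 2.39 and 2.95 rpm on SIM against 16.3, 17.9 and 13.8 rpm on CIM in siz1-2 explants. WT explants had 5.23, 5.73 and 6.57 rpm on SIM against 14, 12.3 and 18 rpm on CIM. The genotypes overlapped on CIM and did not on SIM. The AT1G69480 interaction was -1.02 ± 0.21 (SE; limma, adjusted p = 0.0401), and it was lost without siz1-2 SIM replicate 1 or 2, siz1-2 CIM replicate 1 or 2, WT SIM replicate 1, 2 or 3 or WT CIM replicate 1 or 2 (limma, adjusted p of 0.0573 to 0.142). AT1G66830 and AT1G33590, both with leucine-rich repeats, fell on SIM in siz1-2 and rose in WT. Among genes with a called interaction, they and AT4G28790 were the 3 whose changes were called in opposite directions in siz1-2 and WT. The interactions of AT1G66830 and AT1G33590 were -1.51 and -1.01 (log2). AT1G66830 lost its call without siz1-2 SIM replicate 1 or 2, siz1-2 CIM replicate 1, WT SIM replicate 1 or WT CIM replicate 1 or 3 (limma, adjusted p of 0.0582 to 0.0868). AT1G33590 lost its call without siz1-2 SIM replicate 1 or 2, siz1-2 CIM replicate 1, 2 or 3, WT SIM replicate 1 or WT CIM replicate 1 or 3 (limma, adjusted p of 0.0529 to 0.130).

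A further group of lower genes was on in siz1-2 callus and close to 0 on SIM in both genotypes: 14 of the 30 had a mean under 1 rpm on SIM in siz1-2 and in WT. For such genes the size of the interaction follows the CIM difference and the added 1, and edgeR called none of the 14. GRP19, a glycine-rich oleosin known from the pollen coat, had 0.0844, 0.374 and 0.449 rpm on SIM against 75.4, 81.9 and 96.9 rpm on CIM in siz1-2 explants. WT explants had 0 in all 3 libraries on SIM against 5.29, 5.24 and 3.51 rpm on CIM. Every siz1-2 CIM library was above every WT CIM library, and the SIM libraries held 0 to a few reads. The GRP19 interaction was -3.55 ± 0.23 (SE; limma, adjusted p = 3.69e-08), but its sign turned on a ratio scale, to 0.68 with edgeR and 0.28 with DESeq2, neither called.

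LTP4, a lipid transfer protein, was the called member of the epidermis and lipid transfer list. Of the 11 genes of that list tested, 7 had interactions above 0 and 4 below 0, with a median of 0.13. LTP4 alone was called, where 0.147% of all genes were lower. In siz1-2 explants LTP4 had 0.0844, 0.523 and 0.641 rpm on SIM against 108, 84.1 and 77.1 rpm on CIM. WT explants had 0, 0.0808 and 0 rpm on SIM against 1.42, 1.69 and 2.63 rpm on CIM. The CIM libraries of the genotypes were far apart, and 2 of 3 WT SIM libraries had no read. The LTP4 interaction was -4.53 ± 0.48 (SE; limma, adjusted p = 2.95e-05); edgeR gave -2.0 and did not call it (adjusted p = 0.956, in a range of 1.71e-09 to 0.956 over 25 alternatives). BGLU19, a beta-glucosidase, and AT3G21380, a mannose-binding lectin gene, lie 504 bases apart and showed the same shape. In siz1-2 explants BGLU19 had 0.0844, 0 and 0 rpm on SIM against 16.9, 12.4 and 23.5 rpm on CIM. WT explants had 0.154, 0 and 0.0671 rpm on SIM against 2.83, 1.77 and 2.88 rpm on CIM. The BGLU19 interaction was -2.45 ± 0.43 (SE; limma, adjusted p = 0.0106) and that of AT3G21380 was -2.22 ± 0.39 (SE; limma, adjusted p = 0.0121). AT3G21380 lost its call without siz1-2 SIM replicate 1, WT SIM replicate 1 or WT CIM replicate 3 (limma, adjusted p of 0.0502 to 0.0534), and its highest CIM value, 53.1 rpm, was in siz1-2 replicate 3, high in salicylic acid genes; without the 2 libraries its interaction was -2.0 (limma, adjusted p = 0.00369).

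The other genes of this low group were AT2G34315, the receptor-like protein gene RLP20, AT5G47600, CSLB03, PAP23, PKS2, whose protein acts with phytochrome and phototropin light receptors, and AT1G60110, with interactions of -1.93 to -0.94. AT2G34315 and PAP23, a purple acid phosphatase, had no read in any SIM library of either genotype at 4 or 6 days. AT2G34315 had 4.72, 5.02 and 3.21 rpm on CIM in siz1-2 explants and 0.661, 0.253 and 0.251 rpm in WT explants. PAP23 had 3.52, 3.77 and 2.57 rpm on CIM in siz1-2 explants and 0.756, 0.591 and 0.627 rpm in WT explants. These 2 and AT1G60110 passed the filter of 1 rpm in 3 libraries through siz1-2 CIM alone, so they could not be tested without any 1 of its libraries. The filter thus favoured a lower interaction for them, and their p-values are no separate support. AT1G60110 also lost its call without siz1-2 SIM replicate 1 or 2, WT SIM replicate 1 or 2 or WT CIM replicate 1, 2 or 3 (limma, adjusted p of 0.0850 to 0.147). AT5G47600, an HSP20-like gene, lost its call without siz1-2 SIM replicate 1 or WT CIM replicate 1 (limma, adjusted p of 0.0600 to 0.0657). CSLB03, a cellulose synthase-like gene, is 88.3% identical to CSLB04 over 2339 bases. AT3G51750, of unknown function, was under 1 rpm on SIM in siz1-2 explants only, and its interaction was -1.69 ± 0.29 (SE; limma, adjusted p = 0.0101).

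KIN1, a cold- and abscisic acid-induced protein, had a large value with an adjusted p close to the threshold. In siz1-2 explants it had 50.2, 23.8 and 29 rpm on SIM against 39.9, 41.4 and 109 rpm on CIM. WT explants had 70.3, 97.3 and 88.7 rpm on SIM against 10.6, 11.7 and 7.52 rpm on CIM. The highest siz1-2 CIM value was replicate 3, high in salicylic acid genes, and on both media the genotypes did not overlap. The KIN1 interaction was -3.76 ± 0.76 (SE; limma, adjusted p = 0.0456), and the call was lost without any 1 of the 12 libraries (limma, adjusted p of 0.0510 to 0.152), with the interaction at -4.07 to -3.30. Without the 2 CIM libraries it was -3.42 (limma, adjusted p = 0.167). Its neighbour KIN2, 91.7% identical over 505 bases, had -3.32 ± 0.73 (SE; limma, adjusted p = 0.0775), so reads of the pair may be mixed. Of the 9 cold and abscisic acid genes tested KIN1 alone was called in limma, where 0.147% of all genes were lower. With DESeq2 3 were lower, where 0.363% of all genes were, and with edgeR none. The list median was -0.92.

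Transporters led the higher genes that both tools called. OPT3 belongs to the oligopeptide transporters and is known for moving iron into the phloem. In siz1-2 explants it had 35.4, 45.4 and 35.6 rpm on SIM against 12, 10.6 and 9.27 rpm on CIM. WT explants had 22.9, 24 and 26.4 rpm on SIM against 16.5, 15.9 and 18.7 rpm on CIM. It rose on SIM in both genotypes, and siz1-2 libraries were all below WT on CIM and all above WT on SIM. The OPT3 interaction was 1.27 ± 0.17 (SE; limma, adjusted p = 0.000874). AAP4, an amino acid permease, gave the same crossing: siz1-2 explants had 112, 97.4 and 78.8 rpm on SIM against 24.4, 19.6 and 18.5 rpm on CIM. WT explants had 54.9, 59.2 and 55.1 rpm on SIM against 29.4, 30.2 and 29.2 rpm on CIM. The AAP4 interaction was 1.24 ± 0.19 (SE; limma, adjusted p = 0.00338). Both were called under every one of 25 alternatives.

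LSH2, of the ALOG family whose members mark the boundary of new organs, was the called member of the shoot meristem and organ boundary list. In siz1-2 explants it had 8.02, 14 and 14.2 rpm on SIM against 1.39, 0.986 and 0.459 rpm on CIM. WT explants had 0.231, 0.404 and 0.201 rpm on SIM against 0 in all 3 libraries on CIM. On both media all siz1-2 libraries were above all WT libraries. The LSH2 interaction was 2.39 ± 0.37 (SE; limma, adjusted p = 0.00348), but its sign turned on a ratio scale, to -1.08 with edgeR and -0.31 with DESeq2, neither called, with WT at 0 on CIM. After 6 days on SIM, in libraries the interaction did not use, LSH2 had 23.9, 18.4 and 21.1 rpm in siz1-2 explants and 0.791, 2.78 and 2.7 rpm in WT explants, a difference of 2.91 ± 0.26 (SE; limma, adjusted p = 1.12e-06).

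EP3, a chitinase, had 5.91, 4.86 and 4.49 rpm on SIM against 0.741, 0.897 and 2.66 rpm on CIM in siz1-2 explants. WT explants had 1.00, 0.888 and 0.805 rpm on SIM against 1.7, 1.44 and 1.13 rpm on CIM. On SIM the siz1-2 libraries were all above WT, and on CIM the genotypes overlapped, with the highest siz1-2 value in replicate 3, high in salicylic acid genes. The EP3 interaction was 1.75 ± 0.35 (SE; limma, adjusted p = 0.0401), lost in 11 of the 12 fits without 1 library (limma, adjusted p of 0.0558 to 0.134) and called only without siz1-2 CIM replicate 3; without the 2 CIM libraries it was 2.08 (limma, adjusted p = 0.00475). AT3G18560, of unknown function, had 13.1, 11.8 and 9.04 rpm on SIM against 2.04, 3.05 and 1.47 rpm on CIM in siz1-2 explants. WT explants had 4.00, 6.46 and 5.3 rpm on SIM against 3.78, 2.87 and 3.51 rpm on CIM. The AT3G18560 interaction was 1.47 ± 0.28 (SE; limma, adjusted p = 0.0225), and the call was lost without siz1-2 SIM replicate 1 or 2, siz1-2 CIM replicate 1, WT SIM replicate 1 or WT CIM replicate 1 or 3 (limma, adjusted p of 0.0600 to 0.0967). On SIM every siz1-2 library was above every WT library.

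AT1G70880, a polyketide cyclase family gene, had 4.31, 3.59 and 5.39 rpm on SIM in siz1-2 explants and 1.08, 1.37 and 1.27 rpm in WT explants, all 6 CIM libraries being under 1 rpm. Its call, at 1.42, was lost without WT SIM replicate 1 (limma, adjusted p = 0.0534). AT2G39855 had 1.86, 1.64 and 1.28 rpm on SIM in siz1-2 explants and 0, 0.242 and 0.134 rpm in WT explants, with an interaction of 1.3 ± 0.22 (SE; limma, adjusted p = 0.0101). In siz1-2 explants GSL11, of the callose synthase family, had 137, 136 and 133 rpm on SIM against 38.2, 29.1 and 23.5 rpm on CIM. WT explants had 83.5, 94.2 and 113 rpm on SIM against 37.6, 42.9 and 45 rpm on CIM. On SIM every siz1-2 library was above every WT library, and on CIM the genotypes overlapped. The GSL11 interaction was 0.96 ± 0.19 (SE; limma, adjusted p = 0.0311), and the call was lost without siz1-2 SIM replicate 1, 2 or 3, siz1-2 CIM replicate 2, WT SIM replicate 1 or 2 or WT CIM replicate 2 or 3 (limma, adjusted p of 0.0578 to 0.126).

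PR1 and 4 other higher genes were on in WT callus and near 0 on SIM in both genotypes. For them, too, the size of the interaction follows the CIM difference and the added 1, and edgeR called none of them. PR1 is the classic marker of salicylic acid signalling and was the called member of that list. In siz1-2 explants PR1 had 0, 0.523 and 0 rpm on SIM against 1.39, 1.79 and 1.65 rpm on CIM. WT explants had 0 in all 3 libraries on SIM against 5.2, 6.25 and 5.39 rpm on CIM. WT CIM libraries were all above siz1-2 CIM libraries, and the values were even within each group, the 2 libraries high in the other salicylic acid genes included. The PR1 interaction was 1.54 ± 0.22 (SE; limma, adjusted p = 0.00152), and without those 2 libraries it was 1.49 (limma, adjusted p = 0.0107). Of the 30 salicylic acid genes tested PR1 alone was called, where 0.0638% of all genes were higher. The list median of 0.20 ran from -0.70 to 0.95 as 1 library was left out and was 0.29 without the 2 CIM libraries.

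AT1G65570, annotated as pectin lyase-like, had 0.253, 0.149 and 0.0641 rpm on SIM against 0.0926, 0.448 and 0.184 rpm on CIM in siz1-2 explants. WT explants had 0.154, 0.404 and 0.268 rpm on SIM against 8.88, 4.9 and 12.8 rpm on CIM. AT1G29600, a zinc finger gene, had 0, 0.0747 and 0.0641 rpm on SIM against 0, 0.179 and 0.0918 rpm on CIM in siz1-2 explants. WT explants had 0 in all 3 libraries on SIM against 8.78, 3.46 and 7.9 rpm on CIM. Only the WT CIM libraries of these 2 genes were above 1 rpm. The AT1G65570 interaction was 2.77 ± 0.29 (SE; limma, adjusted p = 1.75e-05) and that of AT1G29600 was 2.81 ± 0.28 (SE; limma, adjusted p = 1.14e-05). AT3G54450, which lies 10174 bases from EP3 and encodes a transporter of the major facilitator type, had 1.40, and AT5G51520, a pectin methylesterase inhibitor-like gene, had 1.05 (log2). These 4 passed the filter through WT CIM alone and could not be tested without any 1 of its libraries. That group is also the one that makes their interaction high, so the filter favoured a higher value. Their p-values are therefore no separate support.

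**Figure D4:**
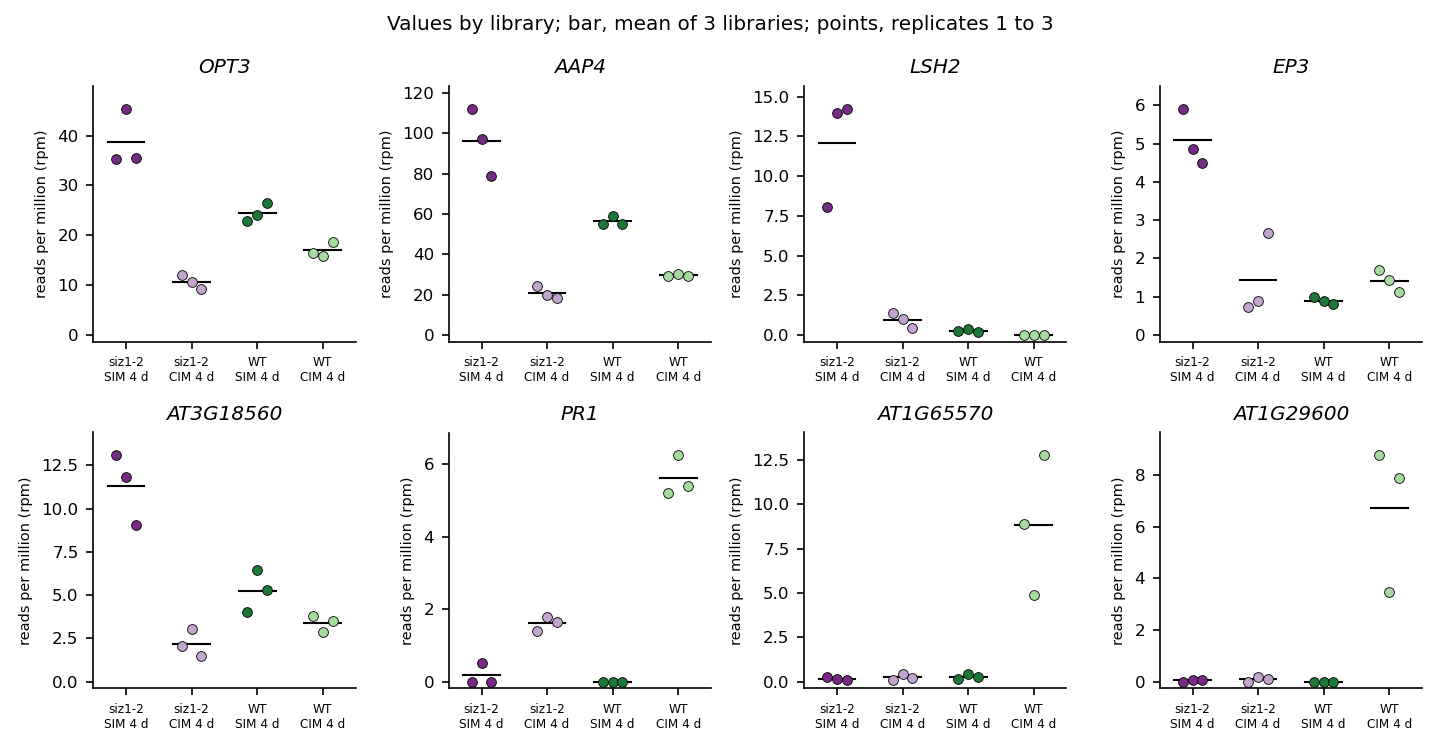
Values in rpm (linear axes) by library for 8 genes with a higher interaction in siz1-2 SIM, siz1-2 CIM, WT SIM and WT CIM explants; points are libraries and black bars are means of 3. OPT3, AAP4, LSH2, EP3 and AT3G18560 are highest in siz1-2 SIM libraries, whereas PR1, AT1G65570 and AT1G29600 are highest in WT CIM libraries.

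Explants after 6 days on SIM allowed the genotypes to be compared in libraries the 4-day value did not use. Of the 43 genes 9 were called apart between siz1-2 and WT there, against 3.01% of all genes tested: 5 were higher, where 1.42% of all genes were, and 4 lower, where 1.59% were. LSH2, AAP4, EP3 and AT3G18560 were higher in siz1-2, as was AT5G47600, and AT2G38380, CITF1, AT1G69480 and AT4G03420 were lower. AAP4 had 111, 92.9 and 95.6 rpm in siz1-2 explants and 43.7, 55.5 and 51.5 rpm in WT explants, a difference of 0.98 ± 0.13 (SE; limma, adjusted p = 0.000237). AT4G03420 had 57.8, 58.7 and 48.8 rpm in siz1-2 explants and 76.8, 76.3 and 77.8 rpm in WT explants, a difference of -0.48 ± 0.11 (SE; limma, adjusted p = 0.0228). MIR408, apart in both media at the earlier times, had 12, 10.8 and 11.7 rpm in siz1-2 explants and 12.2, 12.2 and 12.7 rpm in WT explants.

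The same interaction computed with the 6-day SIM libraries was called for 23 genes higher and 61 lower (0.413% in all), and it shares the CIM libraries with the 4-day value, so the values are set side by side only. For AT2G38380 it was -2.98 at 6 days and -2.69 at 4 days, for OPT3 0.83 and 1.27, for MIR408 -0.92 and -1.51, and for ZIP2 -1.85 and -1.35. In freshly cut explants 7 of the 43 genes were called apart between the genotypes, against 11.0% of all genes. PRXCB averaged 1852 rpm in siz1-2 and 1200 rpm in WT freshly cut explants, and LTP4 averaged 159 and 8.51 rpm.

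Most regulators of the callus-to-shoot switch had no called interaction. Of 465 pathway and marker genes in 31 lists, not all of them tested, 5 had a called interaction, where 0.211% of all genes tested did. The 5 were LSH2, KAN1, PR1, LTP4 and KIN1, in 5 different lists, and the lists were chosen with earlier results known. All 43 called genes but these 5 lay outside the lists. Type-A response regulators, which report cytokinin signalling, had a median change of 1.44 in siz1-2 and 1.29 in WT explants, and 8 of 9 tested rose in each, where 28.8% and 21.2% of all genes did. ARR7 had 102, 88.9 and 98.3 rpm on SIM against 20.6, 18.4 and 12.1 rpm on CIM in siz1-2 explants. WT explants had 125, 119 and 119 rpm on SIM against 23.61, 18 and 22.2 rpm on CIM. The ARR7 interaction was -0.00076 ± 0.205 (SE; limma, adjusted p = 1) and that of ARR5 was -0.01 ± 0.17 (SE; limma, adjusted p = 0.993); either sign was met when 1 library was left out. ARR15 had 0.51 ± 0.63 (SE; limma, adjusted p = 0.879), and CKX3, which breaks cytokinin down, had 0.25 ± 0.28 (SE; limma, adjusted p = 0.853).

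Root meristem and callus genes fell in both, with a median change of -2.48 in siz1-2 and -2.66 in WT explants, and 14 and 15 of 18 called lower, where 25.1% and 24.5% of all genes were. LBD16 had an interaction of 0.71 ± 0.32 (SE; limma, adjusted p = 0.499), WOX5 of -0.39 ± 0.47 (SE; limma, adjusted p = 0.874) and PLT1 of 0.05 ± 0.33 (SE; limma, adjusted p = 0.989); the sign for PLT1 turned with edgeR and DESeq2. Of 27 shoot meristem and boundary genes tested, 15 rose on SIM in siz1-2 and 9 in WT explants, where 28.8% and 21.2% of all genes rose, while LSH2 was the one with a called interaction; the list median was 0.45. At an unadjusted p below 0.05 there were 2 higher and 2 lower, where 6.42% and 3.02% of all genes were. A higher interaction was called in limma for 0.0638% of all genes. In siz1-2 explants WUS had 19.2, 17.9 and 6.54 rpm on SIM against 0 in all 3 libraries on CIM. WT explants had 1.39, 13.2 and 2.88 rpm on SIM against 0 in all 3 libraries on CIM. WT SIM replicate 2 was among the siz1-2 values and the other WT libraries were below them. The WUS interaction was 1.48 ± 0.79 (SE; limma, adjusted p = 0.592), that of ESR1, a transcription factor that promotes shoot formation, was 0.78 ± 0.40 (SE; limma, adjusted p = 0.575), and that of CUC2, a boundary gene, was 0.45 ± 0.55 (SE; limma, adjusted p = 0.874).

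Photosynthesis genes rose on SIM, 28 of 33 in siz1-2 and 29 of 33 in WT explants, where 28.8% and 21.2% of all genes rose. Their median interaction was -0.52, from -1.04 to -0.07 as 1 library was left out and -0.65 without the 2 CIM libraries. None of the 33 was called in limma, at an unadjusted p below 0.05, with edgeR or with DESeq2. LHCB1.3, of the light-harvesting antenna, had 257, 307 and 254 rpm on SIM against 95.4, 51.2 and 3.58 rpm on CIM in siz1-2 explants. WT explants had 317, 303 and 141 rpm on SIM against 13, 1.94 and 21.6 rpm on CIM. The lowest CIM value of each genotype was in the replicate high in salicylic acid genes, and WT SIM replicate 3 was below the other SIM libraries. The LHCB1.3 interaction was -1.35 ± 1.95 (SE; limma, adjusted p = 0.904) and that of RBCS1A, a Rubisco subunit, was -1.05 ± 2.06 (SE; limma, adjusted p = 0.939); without the 2 CIM libraries they were -1.81 and -1.37. The list mean on the log2(rpm + 1) scale was 2.40 and 2.02 in those 2 CIM libraries, 2.99 to 4.54 in the other CIM libraries and 4.81 in WT SIM replicate 3, against 5.66 to 5.81 in the other SIM libraries; the part of these libraries in the result was not tested.

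Salicylic acid genes, high in those 2 CIM libraries, had wide errors. ICS1, the synthesis enzyme, had 11.3, 23.8 and 10.6 rpm on SIM against 6.2, 7.62 and 174 rpm on CIM in siz1-2 explants. WT explants had 9.31, 7.67 and 7.04 rpm on SIM against 9.26, 182 and 8.02 rpm on CIM. On CIM 1 library of each genotype was far above the rest. The ICS1 interaction was 0.98 ± 1.42 (SE; limma, adjusted p = 0.905), with 0.55 ± 2.36 (SE; limma, adjusted p = 0.979) for PBS3 and 0.36 ± 1.90 (SE; limma, adjusted p = 0.983) for WRKY70. Without the 2 CIM libraries the values were 1.06 for ICS1, 0.44 for PBS3 and 0.32 for WRKY70, none called. Heat shock genes had the highest list median, 0.94, against 0.06 for all genes, and 0.67 without the 2 CIM libraries. All 10 tested had a value above 0, and none was called in limma, at an unadjusted p below 0.05, with edgeR or with DESeq2; the list median of the changes was -0.24 in siz1-2 and -1.49 in WT explants. With the 6-day SIM libraries the heat shock median interaction was -0.95, below 0. CYCB1;1, a mitotic cyclin, had 0.10 ± 0.22 (SE; limma, adjusted p = 0.953), and none of 27 cell cycle genes was called by any of these counts.

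The genotypes were called apart on both media for 116 genes. The interaction was called for 3 of them, where it was called for 0.211% of all genes tested. The differences that picked the 116 are part of the interaction, so this count is no test. QQS, AT1G06620 and BGLU24 were among those of the 116 without a called interaction. QQS, an orphan gene tied to starch content, had 16.5, 17 and 24.9 rpm on SIM against 28.9, 30.6 and 30.7 rpm on CIM in siz1-2 explants. WT explants had 0.154, 0.242 and 0.0671 rpm on SIM against 0.283, 0.253 and 0.251 rpm on CIM. The QQS interaction was -0.49 ± 0.27 (SE; limma, adjusted p = 0.596), with the sign turned in edgeR (0.09) and DESeq2 (0.11). AT1G06620, an oxygenase gene, averaged 1.26 ± 0.399 rpm on SIM in siz1-2 and 17.2 ± 1.32 rpm in WT explants (SD, n = 3), with an interaction of -0.59 ± 0.23 (SE; limma, adjusted p = 0.432). BGLU24, a beta-glucosidase, averaged 0.821 ± 0.414 and 13.1 ± 6.82 rpm there (SD, n = 3), with an interaction of -0.15 ± 0.51 (SE; limma, adjusted p = 0.972); its sign turned at a pseudocount of 5. SIZ1 itself had 0.22 ± 0.17 (SE; limma, adjusted p = 0.752), and SCE1, the SUMO-conjugating enzyme, had 0.13 ± 0.09 (SE; limma, adjusted p = 0.716). The xylem, phloem, endodermis, stomatal and embryo lists held no gene called in limma, at an unadjusted p below 0.05, with edgeR or with DESeq2, and 1 of 10 stomatal and 2 of 5 embryo genes passed the filter. In whole explants, fewer cells of a type and less RNA in each cell cannot be told apart for any of these genes.

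**Figure D5:**
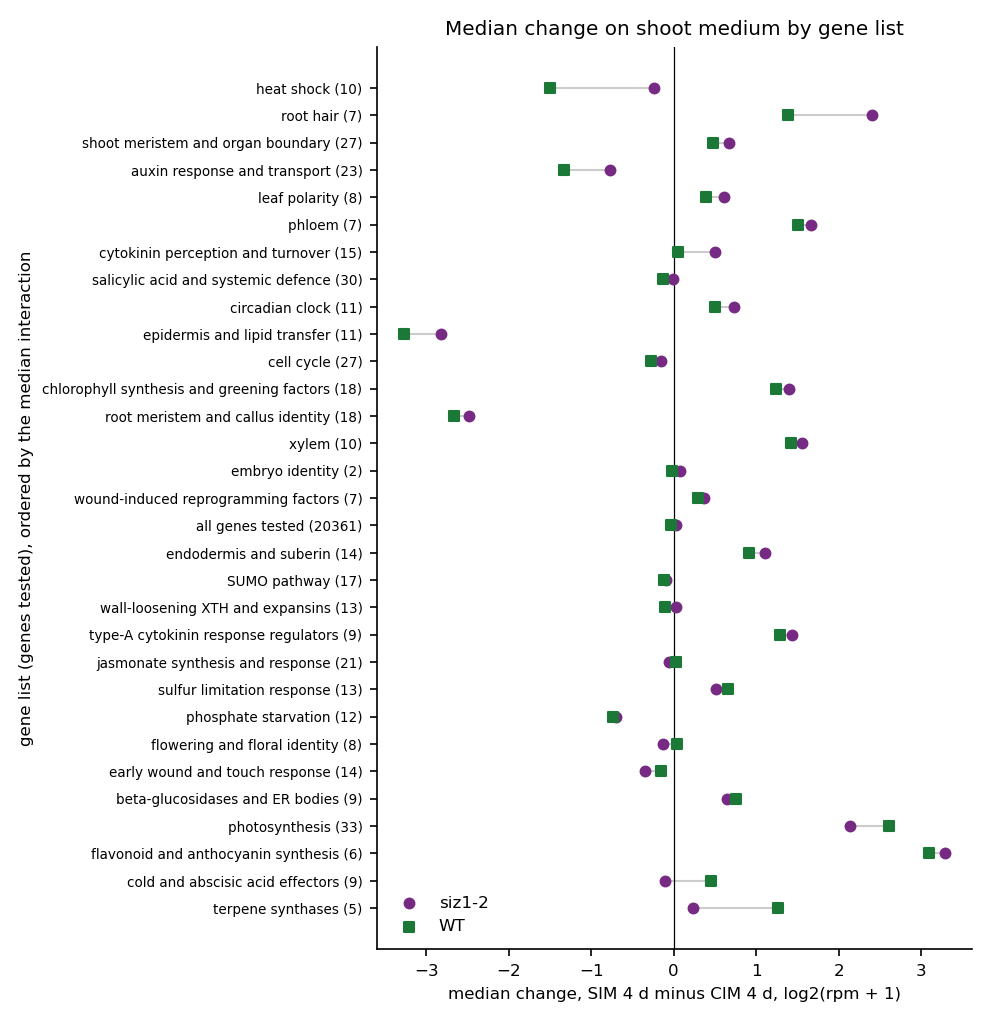
Median change on SIM in log2(rpm + 1) in siz1-2 explants (circles) and WT explants (squares) for 30 lists and for all genes tested, with the number tested in brackets, ordered by the median of the genes' interactions, which need not equal the gap between the points. In most lists the 2 genotypes lie close together, as in type-A cytokinin response regulators (1.44 and 1.29), and heat shock genes lie apart (-0.24 and -1.49); stomatal genes are left out because 1 was tested.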

How the data were processed

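The data are 24 mRNA sequencing libraries of Arabidopsis thaliana hypocotyl explants, made with a stranded kit. The deposited files give 1 signal value per isoform and library, and every value was a whole multiple of what 1 read is worth (within 0.001 read), so it is reads per 1000000 reads of the library (rpm). A read is listed for each isoform it matches, so isoforms were not added up. Per the submitters' processing notes, bcl2fastq and Bowtie 1.2.1 were used with TAIR10; how reads of near-identical copies were placed, and whether strand was used, is not given in those notes or the labels.

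Each of 25960 genes was represented by 1 isoform, that of highest mean in all 24 libraries. Genes with at least 1 rpm in at least 3 libraries (20361) were tested with limma 3.58.1 in R 4.3.3, with trend and robust settings, on log2(rpm + 1), with 8 group means over the 24 libraries and 16 residual degrees of freedom. Calls are at a Benjamini-Hochberg adjusted p below 0.05 over all genes tested. The whole reads recovered were also tested with edgeR 4.0.16 and DESeq2 1.42.0. Alternatives were other pseudocounts, filters and scalings, summed isoforms, the 4 groups alone, a replicate block and leaving out libraries. Intervals and limits at 3 reads cover counting error only.

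The genes described are the 15 with the largest interaction called in each direction, the called members of the lists and a fixed set of regulators; the other called genes, the copper genes not called, KIN2 and the gene copies were named after their values were seen. The comparison, the lists and these rules were chosen with earlier results of these data known. Gene positions and sequences are from the RefSeq annotation of TAIR10.1, in which 25593 of the 25960 genes were found.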

Additional observations from a re-analysis of the deposited data

Results flagged for a closer look

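The change on SIM differed between siz1-2 and WT explants by the interaction test itself (limma, adjusted p below 0.05) for the 43 genes listed here with their log2 interaction. Called under each of the 25 alternatives were AT2G38380 (-2.69), AT1G62420 (-2.16), PRXCB (-1.90), PRXCA (-1.76), AAP4 (1.24) and OPT3 (1.27). Called also in each of the 12 fits that left out 1 library were GRP19 (-3.55), LTP4 (-4.53), BGLU19 (-2.45), NCED2 (-1.77), AT3G51750 (-1.69), RLP20 (-1.67), MIR408 (-1.51), CSLB03 (-1.39), CITF1 (-1.21), PKS2 (-1.04), AT4G28790 (-2.87), AT4G03420 (-0.98), AT2G39855 (1.3), PR1 (1.54) and LSH2 (2.39). Among these, edgeR called MIR408, AT4G28790 and AT4G03420 and not the others. The signs of GRP19 and LSH2 turned with edgeR and DESeq2.

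For 6 genes the call held wherever they could be tested, but they passed the filter through 1 group alone: AT2G34315 (-1.93), PAP23 (-1.36), AT5G51520 (1.05), AT3G54450 (1.40), AT1G65570 (2.77) and AT1G29600 (2.81). That group is the one that makes their interaction, and without any 1 of its libraries they could not be tested, so stability was not shown. AT1G60110 (-0.94) passed through 1 group alone and also lost its call without some libraries. The call was lost without 1 to 3 of the 12 libraries for AT3G21380 (-2.22), MYB79 (-1.51), AT5G47600 (-1.40), KAN1 (-1.32), AT1G78850 (-1.31) and AT1G70880 (1.42). It was lost without 6 to 12 of them for KIN1 (-3.76), AT1G66830 (-1.51), ZIP2 (-1.35), AT1G69480 (-1.02), AT1G33590 (-1.01), AT4G13490 (-0.89), GSL11 (0.96), AT3G18560 (1.47) and EP3 (1.75).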

How the results depend on the processing

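The 43 calls of the 4-day interaction are few beside 20361 genes, and their number moves with the processing; the cause was not tested. For 13 higher and 30 lower genes, a pseudocount of 5 gave 28 and 49. No filter beyond 1 read gave 22 higher, and a filter of 5 rpm in 3 libraries gave 6 higher. The 4 groups alone gave 16 lower with fewer samples behind the spread, edgeR 2 higher and 12 lower, DESeq2 74 lower, and leaving out both CIM libraries with high defence genes 8 higher. Without 1 library the counts ran from 7 to 50 higher and from 21 to 52 lower. For the 6-day interaction (23 higher, 61 lower), pseudocounts of 0.5 and 5 gave 13 and 32, and 39 and 99. No filter gave 42 higher, the stricter filter 5 and 31, the 4 groups alone 8 and 13, edgeR 1 and 26, and DESeq2 217 lower. Without 1 library these ran from 9 to 30 higher and from 14 to 115 lower. The counts of genes that changed on SIM within each genotype stayed within 1.5 times under all alternatives.

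Whether replicate numbers pair the samples was not settled. Over 18 same-number pairs of libraries the correlation of deviations ran from -0.73 to 0.61, and 10 were above 0.1. Pairs of different number ran from -0.78 to 0.81. Both of these extremes involve WT CIM replicate 2, high in salicylic acid genes, so the ranges cannot decide it. With the replicate number as a block, 12 genes were higher and 25 lower at 4 days, 36 of the 37 being among the 43, and 15 were higher and 27 lower at 6 days.

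Signs turned as follows, as log2 interactions. With edgeR and DESeq2 these were LSH2 (-1.08 and -0.31), GRP19 (0.68 and 0.28), PLT1 (-1.34 and -1.46) and QQS (0.094 and 0.108). A pseudocount of 0.5 turned ARR7 (0.007) and PLT1 (-0.19), and one of 5 turned BGLU24 (0.24). Without the 2 CIM libraries, or the 4 libraries that stood apart, ARR5 was 0.078, CYCB1;1 -0.014 and PLT1 -0.022. Leaving out 1 library gave ranges across 0 for ARR15 (-0.31 to 1.00), ARR5 (-0.103 to 0.061), ARR7 (-0.22 to 0.15), BGLU24 (-0.52 to 0.31), CUC2 (-0.086 to 0.952), CYCB1;1 (-0.064 to 0.19), ICS1 (-0.44 to 2.47), PBS3 (-1.83 to 2.81), PLT1 (-0.21 to 0.24), RBCS1A (-2.46 to 0.04), WOX5 (-0.59 to 0.013) and WRKY70 (-1.49 to 2.17). Scaling by trimmed means or by median of ratios moved the median interaction of all genes to 0.008 and -0.015, against 0.058 unscaled. At 0.0641 to 0.125 rpm for 1 read, differences among genes under about 1 rpm rest on few reads.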

Other observations

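Lists fixed with earlier results known gave these further medians of the 4-day interaction, each without a called member. At an unadjusted p below 0.05, 6.42% of all genes were higher and 3.02% lower. Root hair genes had 0.84 over 7 genes with 1 higher and 1 lower at that level, auxin response and transport genes 0.33 over 23 with 5 higher, and cytokinin perception and turnover genes 0.21 over 15 with 3 higher. Beta-glucosidases and ER body genes had -0.46 over 9 genes with 3 lower, flavonoid genes -0.62 over 6 with 1 higher, and terpene synthases -1.03 over 5 with none in either direction; TPS23 and TPS27 are near-identical copies. edgeR and DESeq2 called none of these genes. The median for all genes tested was 0.06. With the 6-day SIM libraries the root hair median was -1.0, below 0, and those of the other lists were 0.22 for auxin, 0.21 for cytokinin, -0.85 for beta-glucosidase, -1.04 for flavonoid and -0.66 for terpene genes. Without 1 library the medians ran from 0.60 to 1.28 for root hair, from -0.84 to -0.46 for flavonoid and from -1.49 to -0.27 for terpene genes.

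The SUMO pathway list, 17 genes with SIZ1 among them, had a median interaction of 0.04 and no call in limma, edgeR or DESeq2, with 1 gene higher at an unadjusted p below 0.05; under the other scalings the sign of this median turned.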
